A study of Mus musculus with 6 samples.

Results

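The 55 genes described here encode actin and the proteins with which a T cell builds, dismantles, anchors and contracts its actin filaments. They were taken by gene symbol from a list of 55 names, and all 55 were found among the 41079 genes listed in the deposited table. All 55 had a mean of at least 1 TPM and so entered the test, which covered 12227 genes. TPM is the share of a library's reads that a gene receives, divided by its length and scaled to the same total in every library, and it allows levels to be compared between genes. The list was grouped here by role into actin and monomer-binding proteins (6 genes), the Arp2/3 complex (9), WASP and WAVE proteins (7), formin and Ena/VASP proteins (3), disassembly factors and their control (8), capping proteins (3), crosslinkers and membrane linkers (7), myosin II (4), and small GTPases with exchange factors and ROCK kinases (8).

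RNA came from D10 cells, a single cloned line of mouse CD4+ helper T cells that is kept in culture and carries no engineered allele in the labels. Non-acclimated cells were held for 24 h at 37°C (3 libraries) and cold-acclimated cells for 24 h at 26°C (3 libraries). The study asked how T cells that crawl poorly in the cold regain motility after a day at low temperature, and these libraries compare transcripts between the conditions. Both conditions shared the same medium, polyadenylated RNA selection and strand-specific library type.

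A crawling T cell pushes its front forward with branched actin networks, which the Arp2/3 complex nucleates when WASP or WAVE proteins activate it downstream of Rac and Cdc42. Cofilin and related proteins take old filaments apart, LIM kinases switch cofilin off by phosphorylating it, and thymosins and profilin hold the freed monomers. Myosin II, driven by the ROCK kinases, contracts the rear, while talin, filamin and the ERM proteins tie the filaments to adhesion receptors and to the membrane.

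The libraries held between 16899628 and 31290854 reads assigned to genes, as recovered from the TPM. A single member was covered by 1 to 144261 such reads in a library. The 16 T cell marker genes summed to between 4102 and 5642 TPM in non-acclimated and between 4939 and 5900 TPM in cold-acclimated cells, whereas 10 B cell markers summed to at most 3.62 TPM, 10 macrophage markers to at most 21.4 TPM and 10 fibroblast markers to at most 11.8 TPM. Cd4, which defines the labelled cell type, went against that label in replicates 1 and 2. It stood at 1.09, 0.0351 and 310 TPM in non-acclimated replicates 1, 2 and 3 and at 1.30, 0.352 and 328 TPM in cold-acclimated replicates 1, 2 and 3. Thy1 was listed at 0 in all 6 libraries. Cd5 was at 0 but for 0.0454 TPM in cold-acclimated replicate 3, and Trbc1 at 0 but for 0.214 TPM in cold-acclimated replicate 2. Of the 16 T cell markers, 13 had a mean of at least 1 TPM. Whether the 3 replicates hold the same subclone of the line was not tested, and the spread between replicates includes any such difference. According to the labels, RNA was extracted in separate batches, old and new, that served as replicates, but no library is tied to its batch. Deviations from the condition mean went together in libraries of the same replicate number (correlation across the 12227 genes of 0.48, 0.50 and 0.51). Across the 55 members these correlations were 0.44, 0.84 and 0.82. The numbers thus pair the libraries, and values with the replicate number as a block are given where they change a result.

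The members were abundant in both conditions. Their median level was 244 TPM, against 20.7 TPM for all tested genes, and 51 of the 55 lay above the latter value. Together they made up 2.82%, 2.39% and 4.07% of all transcripts in non-acclimated replicates 1, 2 and 3 and 3.24%, 2.33% and 3.91% in the cold-acclimated replicates of the same number. The share therefore differed more between replicates than between temperatures. Among the 41079 listed genes ranked by mean TPM, Tmsb10 was 14th, Tmsb4x 18th, Actb 25th and Cfl1 41st. At the other end stood Cfl2, the muscle-type cofilin, with a mean of 8.11 TPM.

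**Figure D1:**
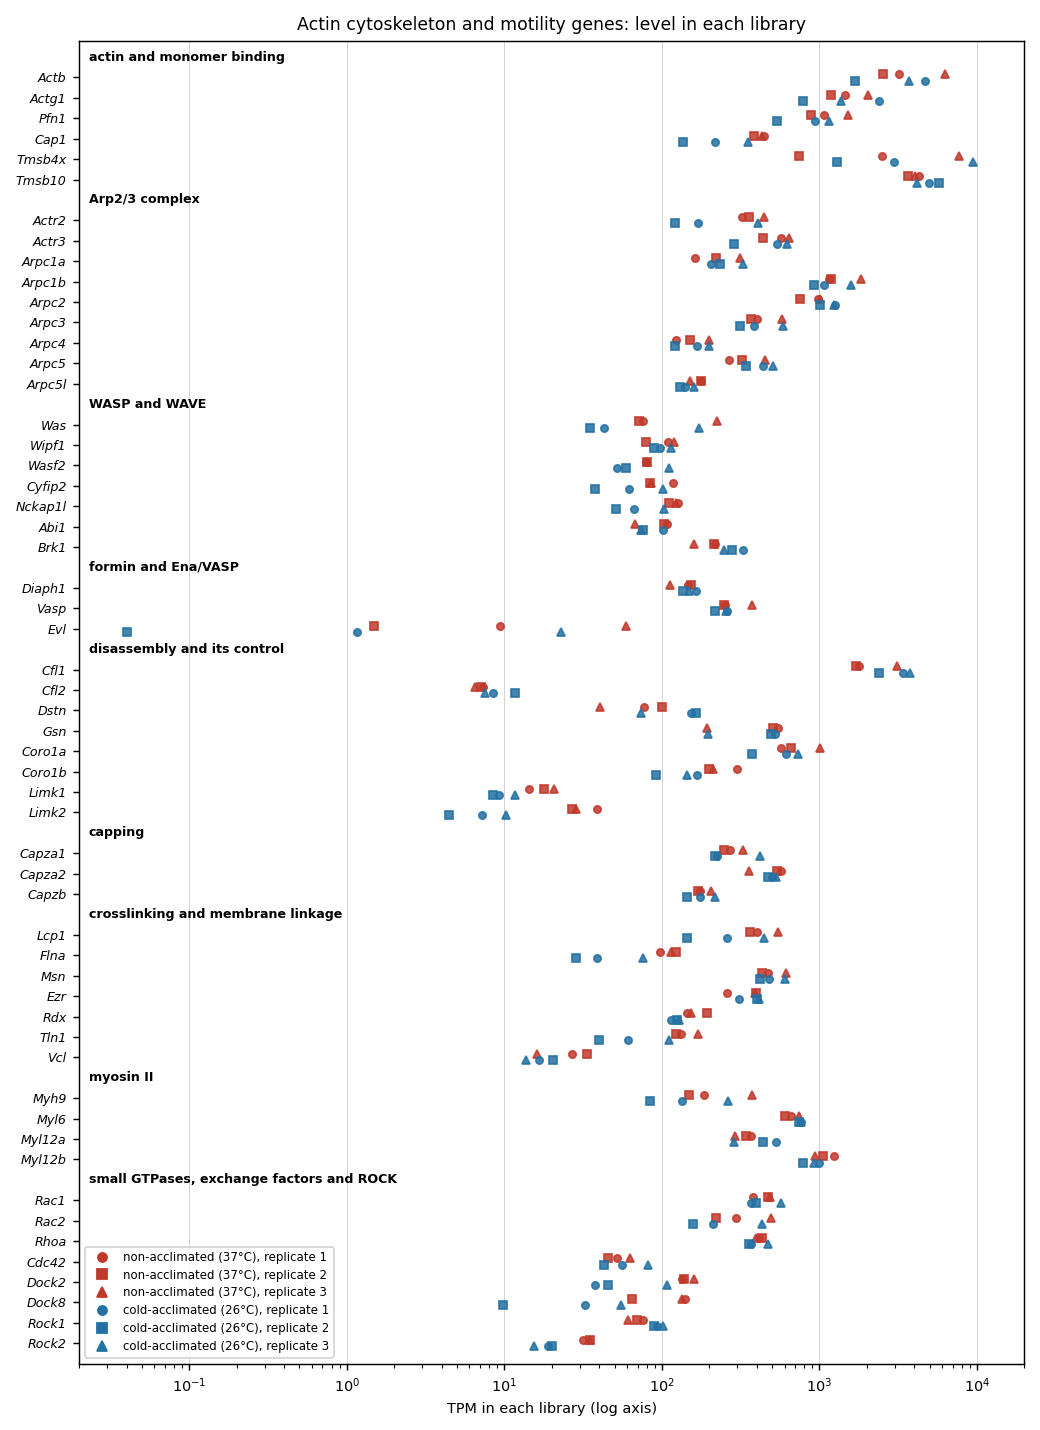
TPM of each of the 55 members (rows, grouped by role) on a log axis in the 3 non-acclimated libraries (red) and the 3 cold-acclimated libraries (blue), with 1 symbol per replicate number. Most members lie above 100 TPM in both conditions, Limk2 and Flna are lower in every cold-acclimated library, and Evl and Tmsb4x are spread widely by replicate.

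How many members changed after cold acclimation depended on whether the pairing of the libraries was used. In limma on log2(TPM + 1) without the pairing, 3 members fell with an adjusted p under 0.05 and 0 rose, while 17.4% of all tested genes fell and 3.3% rose. The 3 were Limk2, Flna and Rock2, which encode a LIM kinase, a filament crosslinker and a ROCK kinase. Limk2 and Flna also met the size threshold of a log2 difference of at least 1 (16% of tested genes lower, 2.63% higher). Without the adjustment, 10 members had a p under 0.05 and were lower and 0 were higher, against 30% and 7.75% of tested genes.

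The libraries of the conditions did not overlap for 11 members that were lower and 4 that were higher at 26°C, against 31.4% and 9.69% of tested genes. In 22 members all 3 replicate pairs were lower at 26°C and in 12 all 3 were higher, against 47.9% and 18.2% of tested genes. The median log2 difference was -0.19 over the members and -0.34 over all tested genes, so the members lay 0.15 above the typical gene. Within replicates 1, 2 and 3 this margin was 0.22, 0.04 and 0.22, and with median of ratios scaling it was 0.18. It turned to -0.12 when no filter on low values was used, which moves only the all-gene median, and to -0.20 with quantile normalization. Its direction thus depended on the processing.

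These counts moved with the scaling of the libraries and with the pairing. Scaling the libraries by the median of ratios shifted the all-gene median from -0.34 to 0.03, and then 2 members rose (Brk1 and Rock1) and 1 fell (Limk2), against 8.64% and 9.32% of tested genes. With the replicate block, which uses the pairing, 1 member rose and 14 fell, against 6.89% and 29% of tested genes. The member that rose was Dstn, and those that fell were Limk2, Flna, Rock2, Cap1, Was, Nckap1l, Evl, Coro1b, Limk1, Lcp1, Tln1, Myh9, Dock2 and Dock8. With the block and the scaling together, 8 rose and 6 fell, against 16.9% of tested genes each. Of these, Tmsb4x, Arpc2, Arpc5, Brk1, Cfl1, Dstn, Myl12a and Rock1 rose and Evl, Limk2, Flna, Tln1, Dock2 and Dock8 fell. Without both libraries of replicate 3, the only replicate with Cd4 at the level of its label, 1 member rose and 10 fell, against 6.96% and 28.9% of tested genes.

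**Figure D2:**
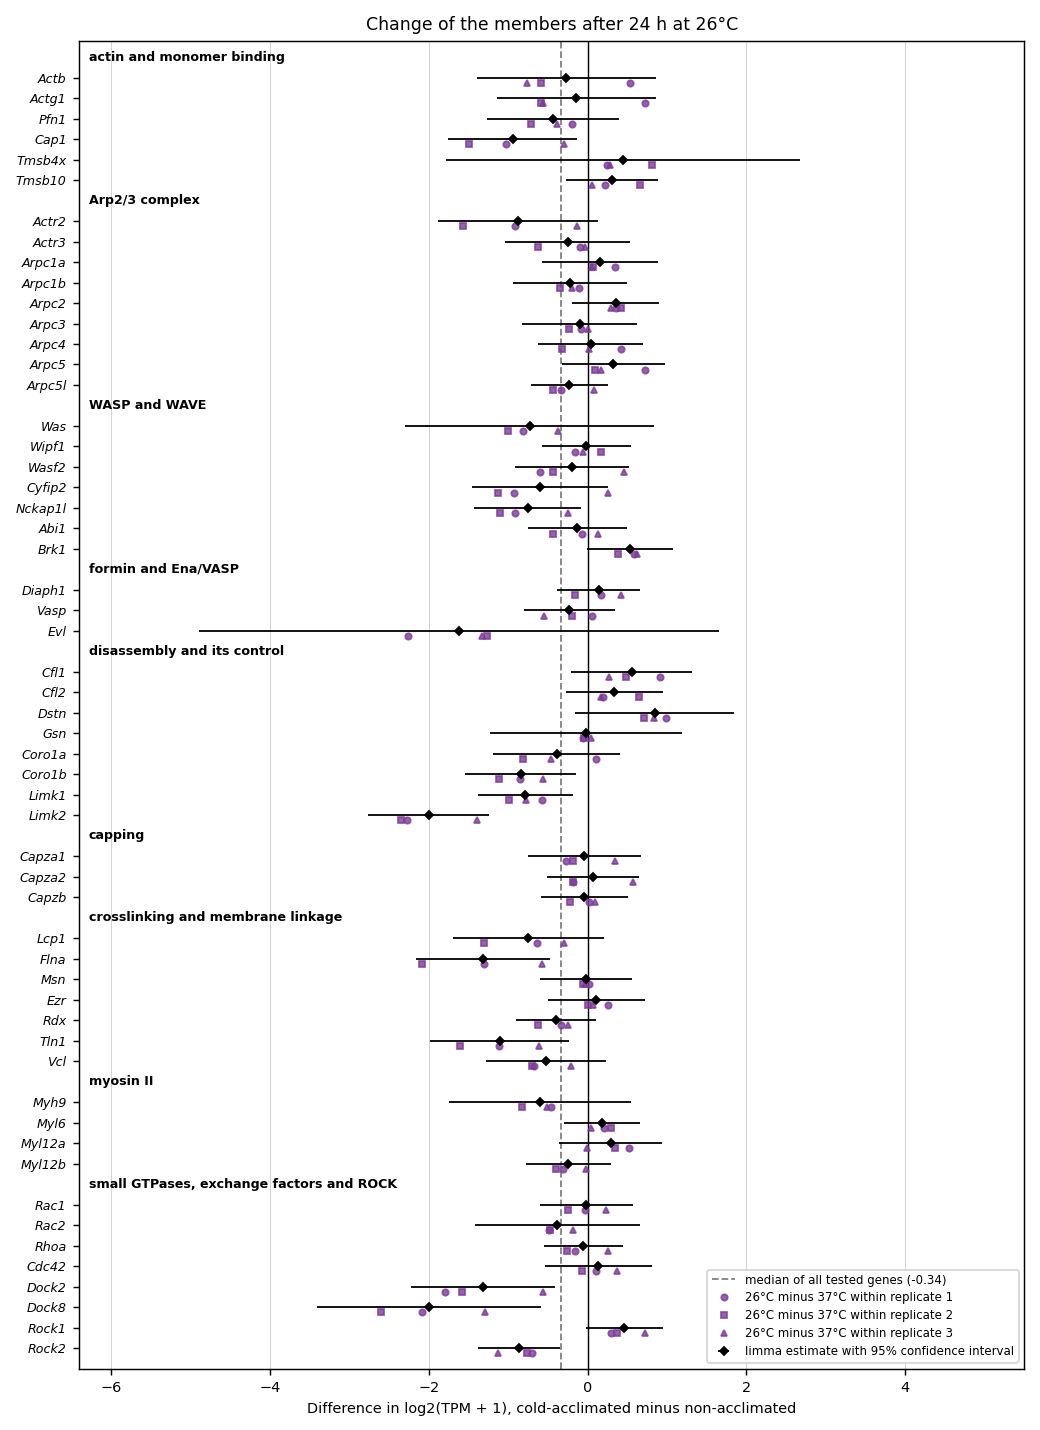
Difference in log2(TPM + 1) between cold-acclimated and non-acclimated cells for each member, as the limma estimate with its 95% confidence interval (black) and within each replicate pair (purple), beside the median of all tested genes at -0.34 (dashed). The intervals of Limk2, Flna and Rock2 lie wholly below 0, as do those of several members whose adjusted p missed 0.05, and most other members are scattered around 0.

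In this unblocked fit Limk2 and Dock8 had the largest log2 differences of the members. LIM kinase 2 phosphorylates and so inactivates cofilin, and its gene lies at chr11:3293297-3359238 on the minus strand of GRCm39. It was at 38.6, 26.7 and 28.3 TPM in non-acclimated replicates 1, 2 and 3 and at 7.18, 4.46 and 10.2 TPM in cold-acclimated replicates 1, 2 and 3. Every cold-acclimated library was below every non-acclimated one. The log2 difference was -2.0 ± 0.33 (SE), a level 4.01-fold lower on this scale, with an adjusted p of 0.0101 in limma. The adjusted p stayed under 0.05 in each alternative of the processing, with a highest value of 0.0496 when non-acclimated replicate 1 was left out, and scaling by the median of ratios gave a log2 difference of -1.62. An RNA on the opposite strand, Gm51879, overlaps Limk2 and had a mean of 2.76 TPM.

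Limk1, which encodes the other LIM kinase, was at 14.3, 17.7 and 20.7 TPM at 37°C and at 9.27, 8.42 and 11.6 TPM at 26°C. These values did not overlap, and the log2 difference of -0.78 ± 0.26 (SE) had an adjusted p of 0.0674 in limma and of 0.0358 with the replicate block. The targets of both kinases are the cofilins. Cfl1, the main cofilin of white blood cells, was at 1793, 1707 and 3105 TPM at 37°C and at 3385, 2388 and 3748 TPM at 26°C. It was higher within each replicate pair, but the conditions overlapped (log2 difference 0.56 ± 0.33 SE, adjusted p = 0.256 in limma). Dstn, encoding the related depolymerizing factor destrin, was at 77.3, 100 and 40.7 TPM at 37°C and at 154, 165 and 73.4 TPM at 26°C. It had an adjusted p of 0.196 in limma, and of 0.0174 with the replicate block.

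The remaining disassembly members did not pass in the unblocked test. Coro1b, for a coronin that links Arp2/3 to cofilin, did not overlap between conditions (238 ± 55.4 TPM at 37°C and 134 ± 38.9 TPM at 26°C, SD, n = 3) and had an adjusted p of 0.083 in limma, or 0.0205 with the block. Coro1a, the most abundant coronin here, had means of 745 and 573 TPM with overlapping libraries. Gsn, encoding the severing protein gelsolin, had means of 415 and 404 TPM. Cfl2 was slightly higher in all cold-acclimated libraries (7.49 to 11.7 TPM, against 6.53 to 7.30 TPM). The median log2 difference over the 8 genes of this role was -0.21, between opposite ends of the list with Dstn at 0.84 and Limk2 at -2.0.

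Flna, the second gene past both thresholds, encodes filamin A, which crosslinks filaments into orthogonal networks and tethers them to integrins. Its gene lies at chrX:73267067-73293787 on the minus strand. It was at 96.8, 123 and 113 TPM in the controls and at 38.8, 28.5 and 75.5 TPM after cold acclimation. Again the conditions did not overlap, with cold-acclimated replicate 3 nearest to the controls. The log2 difference was -1.32 ± 0.36 (SE), with an adjusted p of 0.0402 in limma and of 0.0184 with the block. The call was lost with median of ratios scaling (log2 difference -0.91, adjusted p = 0.0838 in limma), without a filter on low values (0.0822), with quantile normalization (0.0501), with voom on the recovered reads (0.0776) and when any library but cold-acclimated replicate 3 was left out (0.0781 to 0.13). Without that library the adjusted p in limma was 0.00464.

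Among the crosslinkers and membrane linkers, Flna included, 6 of 7 log2 differences were below 0, as were 38 of the 55 members and 8137 of the 12227 tested genes. The role's median of -0.52 lay 0.19 below that of all genes. It was below the all-gene median within each replicate, by 0.31, 0.26 and 0.01 in replicates 1, 2 and 3, but 0.01 above it without non-acclimated replicate 2. Tln1, encoding the integrin activator talin, was at 133, 123 and 171 TPM at 37°C and at 61.0, 40.0 and 112 TPM at 26°C. It did not overlap between conditions, and its adjusted p was 0.0729 in limma and 0.0161 with the block. Rdx, for radixin, was also lower without overlap (164 ± 27.2 and 123 ± 7.30 TPM, SD, n = 3), but its adjusted p was 0.218 in limma. Msn, for moesin, the most abundant member of this role, was at 472, 434 and 615 TPM at 37°C and at 479, 417 and 601 TPM at 26°C, with a 95% confidence interval of the log2 difference from -0.60 to 0.56. Ezr, for the third ERM protein, ezrin, had means of 349 and 374 TPM. Lcp1, for the bundling protein L-plastin, had means of 435 and 282 TPM (adjusted p = 0.225 in limma and 0.0494 with the block), and Vcl, for vinculin, had means of 25.5 and 16.9 TPM (0.279 in limma).

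Rock2 was the third member to fall. It encodes a ROCK kinase that raises myosin II activity and phosphorylates LIM kinases, and lies at chr12:16944808-17038275 on the plus strand. Its level was 31.4, 34.7 and 34.7 TPM in non-acclimated replicates 1, 2 and 3 and 19.0, 20.1 and 15.3 TPM in the cold-acclimated ones, with no overlap and little spread in either condition. The log2 difference was -0.86 ± 0.22 (SE), with an adjusted p of 0.0345 in limma. With median of ratios scaling it shrank to -0.46 (adjusted p = 0.196 in limma). Quantile normalization gave 0.244 and voom 0.161, and leaving out 1 library gave 0.066 to 0.127 except for cold-acclimated replicate 3 (0.0426).

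Rock1, encoding the other ROCK kinase, stood the other way. It was at 75.9, 69.0 and 60.9 TPM at 37°C and at 93.5, 89.5 and 101 TPM at 26°C. All cold-acclimated libraries were above all controls, and the log2 difference of 0.46 ± 0.21 (SE) had an adjusted p of 0.145 in limma. With median of ratios scaling the difference was 0.87 and passed the test (adjusted p = 0.0285 in limma).

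Dock8 and Dock2 encode exchange factors that load Cdc42 and Rac, respectively, with GTP at the leading edge of lymphocytes. Dock8 was at 141, 64.6 and 135 TPM at 37°C and at 32.3, 9.77 and 54.7 TPM at 26°C, so that the highest cold-acclimated value lay below the lowest control. Its log2 difference of -1.99 ± 0.60 (SE) was close to that of Limk2, but replicate 2 was low in both conditions, and the adjusted p was 0.0538 in limma. With the replicate block the SE was 0.28 and the adjusted p was 0.00661. Dock2 was at 133, 138 and 160 TPM at 37°C and at 37.8, 45.4 and 108 TPM at 26°C. It did not overlap between conditions either (log2 difference -1.31 ± 0.39 SE, adjusted p = 0.0509 in limma and 0.0147 with the block). Within replicate 3 the difference in Dock2 was smaller than in the other pairs.

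The GTPases themselves overlapped between conditions. Rac1, which drives lamellipodia, was the most abundant of this role, at 379, 469 and 485 TPM at 37°C and at 370, 397 and 569 TPM at 26°C. The libraries overlapped, and the 95% confidence interval of its log2 difference ran from -0.60 to 0.57. Rhoa had means of 412 and 400 TPM, Cdc42 of 53.3 and 60.0 TPM, and Rac2, the Rac of blood cells, of 336 and 268 TPM. None of the 4 passed the test in limma, with or without the block.

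Actin and the proteins that hold its monomers held a larger share of the members' transcripts than any other role, and 0 of these 6 genes passed the unblocked test. Tmsb10, for thymosin beta-10, which sequesters actin monomers, had the highest mean of all members. It was at 4284, 3624 and 4021 TPM at 37°C and at 4971, 5730 and 4189 TPM at 26°C, with overlap and an adjusted p of 0.405 in limma. Tmsb4x, for thymosin beta-4, was at 2491, 736 and 7725 TPM at 37°C and at 2963, 1297 and 9429 TPM at 26°C. Each pair was higher at 26°C, by 0.25 to 0.82 on the log2 scale, while the replicates differed 10.5-fold at 37°C and 7.27-fold at 26°C, so that the log2 difference of 0.45 had an SE of 0.96 without the block and of 0.19 with it. Its adjusted p in limma was 0.771 without the block, 0.11 with the block and 0.0337 with the block and median of ratios scaling. Without non-acclimated replicate 2 the log2 difference was -0.41, and without cold-acclimated replicate 3 it was -0.30. Both of these fits are unpaired and compare unlike sets of replicates between the conditions, so they do not show how stable the change within pairs was. Without both libraries of replicate 3 the log2 difference was 0.53.

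Actb and Actg1, which encode the cytoplasmic actins, had means of 3993 and 1550 TPM at 37°C and of 3344 and 1514 TPM at 26°C. Both were higher at 26°C within replicate 1 and lower within replicates 2 and 3. Pfn1, for profilin, which feeds monomers to growing filaments, had means of 1154 and 875 TPM. Cap1, for the cyclase-associated protein that recharges monomers with ATP, did not overlap between conditions (422 ± 31.7 and 235 ± 108 TPM, SD, n = 3). Its adjusted p was 0.0902 in limma and 0.0309 with the block.

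Of the 9 genes of the Arp2/3 complex 0 passed the unblocked test, and 8 of 9 log2 differences lay above the median of all genes. The role's median of -0.10 was 0.24 above that of all genes, and within replicates 1, 2 and 3 the margin was 0.24, 0.12 and 0.25. It was -0.03 without a filter on low values and -0.20 with quantile normalization. Arpc1b, encoding the most abundant subunit here, was at 1150, 1178 and 1825 TPM at 37°C and at 1067, 927 and 1592 TPM at 26°C. Arpc2, a scaffold subunit, was at 981, 758 and 1013 TPM at 37°C and at 1262, 1012 and 1238 TPM at 26°C, higher within every pair but with a slight overlap. Its adjusted p in limma was 0.312, and 0.0255 with the block and median of ratios scaling. Actr2, for the actin-related protein Arp2, was the exception below the median (375 ± 62.9 and 232 ± 152 TPM, SD, n = 3, adjusted p = 0.185 in limma). Without replicate 3 its log2 difference was -1.24, with an adjusted p of 0.0154 in limma.

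Among the activators of Arp2/3, Brk1 stood apart from the other 6 genes. It encodes the smallest subunit of the WAVE complex and was the most abundant gene of the role. Its level was 217, 215 and 160 TPM at 37°C and 327, 280 and 248 TPM at 26°C, with no overlap. The log2 difference of 0.53 ± 0.23 (SE) had an adjusted p of 0.139 in limma, and of 0.0401 with median of ratios scaling, where it was 0.95. The other WAVE complex genes had log2 differences below 0, but those of Wasf2 and Abi1 lay above the all-gene median and were positive with median of ratios scaling (0.22 and 0.28). Nckap1l, for the blood-cell subunit Hem1, was lower without overlap (120 ± 8.09 and 73.6 ± 26.7 TPM, SD, n = 3) and had an adjusted p of 0.0998 in limma and 0.0446 with the block. Cyfip2 had means of 95.4 and 66.9 TPM, Wasf2 of 79.9 and 73.9 TPM, and Abi1 of 92.5 and 83.8 TPM, and these libraries overlapped. Was, for the Wiskott-Aldrich syndrome protein, was lower within every pair but overlapped (123 ± 86.2 and 83.1 ± 76.8 TPM, SD, n = 3, adjusted p = 0.474 in limma and 0.0374 with the block), while its partner gene Wipf1 had means of 102 and 100.1 TPM.

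Evl, which encodes an Ena/VASP protein that speeds filament elongation, had the lowest single values of any member. It was at 9.42, 1.49 and 59.1 TPM at 37°C and at 1.17, 0.0401 and 22.9 TPM at 26°C, where the value of 0.0401 TPM was a single read. Each pair was lower at 26°C, yet replicate 3 at 26°C exceeded replicates 1 and 2 at 37°C. The log2 difference was -1.62 ± 1.40 (SE) with an adjusted p of 0.444 in limma, and 0.00986 with the block. Its size depended on the pseudocount, and a pseudocount of 0.1 gave -2.59. Vasp, the founding member of that family and the most abundant gene of the role, was at 250, 247 and 374 TPM at 37°C and at 260, 216 and 255 TPM at 26°C, and overlapped. Diaph1, for a formin, had means of 137 and 150 TPM, with a 95% confidence interval of the log2 difference from -0.38 to 0.66.

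Capping protein and myosin II genes did not pass the unblocked test. The 3 capping protein genes, whose products close the fast-growing end of a filament, had log2 differences from -0.04 to 0.07. Capza2, the most abundant of them, was at 568, 539 and 358 TPM at 37°C and at 501, 475 and 531 TPM at 26°C, with overlap. The confidence interval of its log2 difference ran from -0.51 to 0.65, so changes of that size could not be detected with 3 libraries a condition. Myl12b, a regulatory light chain gene, was at 1240, 1046 and 942 TPM at 37°C and at 997, 791 and 928 TPM at 26°C. Its neighbour Myl12a was at 367, 342 and 290 TPM at 37°C and at 529, 436 and 288 TPM at 26°C, so replicates 1 and 2 were higher at 26°C and replicate 3 was not. Myl6, for the essential light chain, was above all controls in every cold-acclimated library (667 ± 68.0 and 754 ± 13.5 TPM, SD, n = 3), with an adjusted p of 0.564 in limma. Myh9, for the heavy chain, had means of 237 and 161 TPM (adjusted p = 0.415 in limma and 0.0476 with the block).

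Many members differed more between replicates than between temperatures. For 36 of the 55 the range of log2(TPM + 1) among the non-acclimated libraries was larger than the difference between conditions, as it was for 55.1% of all tested genes, and among the cold-acclimated libraries this held for 47 members and 58.3% of tested genes. Replicate 3 had the highest level in both conditions in 25 members, against 27.1% of tested genes, and replicate 2 the lowest in both in 27 members, against 12% of tested genes. Gsn and Dstn ran the other way, with their lowest levels in replicate 3 in both conditions (192 and 197 TPM for Gsn). The T cell receptor gene Trac was low in replicate 2 too (15.0 TPM at 37°C and 12.8 TPM at 26°C, against 129 to 207 TPM in the other libraries), and so was Cd28. In bulk RNA, a smaller share of cells that express a gene and less of its RNA in each cell cannot be told apart, and the part of these replicate differences in the results was not tested beyond the block and the values without replicate 3.

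Related members within 1 library can be compared without any scaling of the libraries. The log2 ratio of (TPM + 1) was taken for 17 pairs of related members in each library. It did not overlap between conditions in 3 pairs, for which the exact permutation test (two-sided) gave p = 0.1, the smallest value that 3 against 3 libraries allow, and 0.486 after Benjamini-Hochberg adjustment over the 17. The ratio moved in the same direction in all 3 replicates in 15 pairs. Some pairs share a member, such as Cfl1 or Msn, and no background of other gene pairs was computed, so these counts are a description.

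For the ROCK kinases, Rock1 over Rock2 was 2.41, 1.99 and 1.76 at 37°C and 4.91, 4.46 and 6.58 at 26°C. The log2 ratio thus went from 1.00 ± 0.23 to 2.33 ± 0.28 (SD, n = 3), a step larger than the spread within either condition. For the LIM kinases, Limk1 over Limk2 was 0.371, 0.663 and 0.732 at 37°C and 1.29, 1.89 and 1.14 at 26°C. In every non-acclimated library Limk2 was the more abundant, and in every cold-acclimated library Limk1 was. Arpc1b over Arpc1a, the alternative forms of the same Arp2/3 subunit, was 7.08, 5.34 and 5.80 at 37°C and 5.17, 3.99 and 4.85 at 26°C, a smaller step of -0.38 on the log2 scale. Myl12a over Myl12b went from 0.296, 0.327 and 0.308 to 0.530, 0.551 and 0.310, so replicate 3 kept its ratio while the others did not.

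**Figure D3:**
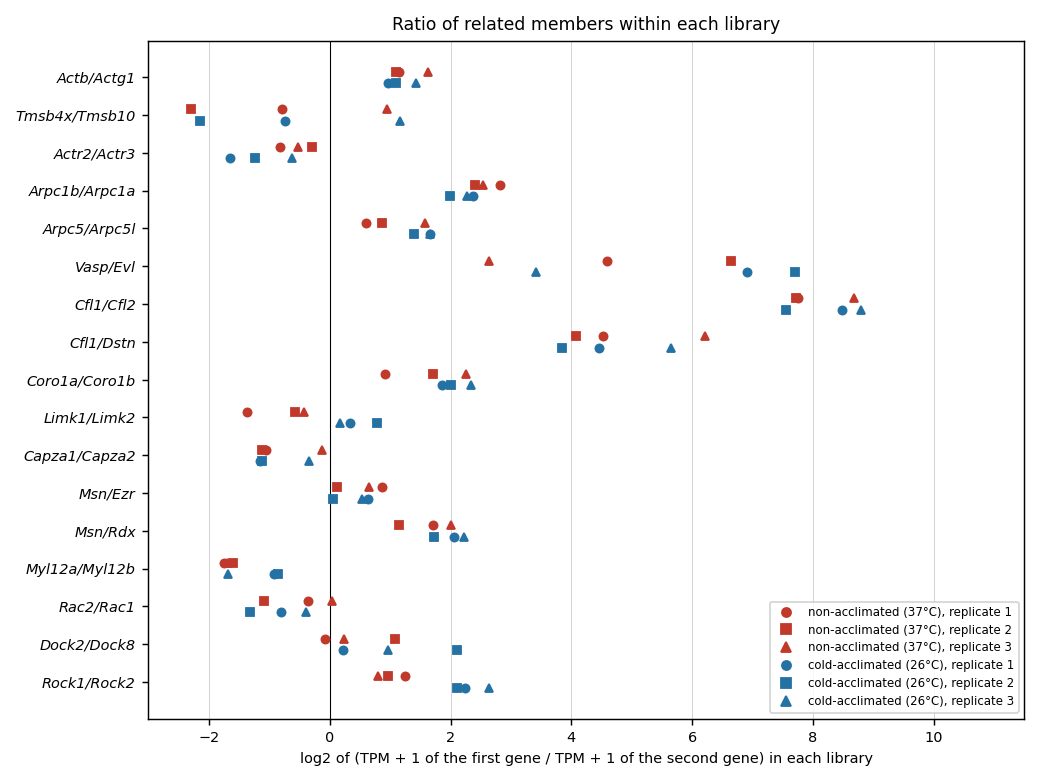
log2 ratio of (TPM + 1) for 17 pairs of related members in each non-acclimated (red) and cold-acclimated (blue) library, with 1 symbol per replicate number. Rock1/Rock2 and Limk1/Limk2 are higher and Arpc1b/Arpc1a is lower in all 3 cold-acclimated libraries, while the other 14 pairs overlap.

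The differences went with gene length among the members. Of the 18 members with at most 2000 bases behind their TPM, 17 lay above the all-gene median of the log2 difference, whereas of the 18 members over 4000 bases 5 did. Median log2 differences of the members were 0.18 up to 1000 bases, 0.16 from there to 2000 bases, -0.05 from there to 4000 bases and -0.67 above that. For all tested genes the same medians were 0.00, -0.22, -0.42 and -0.44. Spearman's correlation between length and log2 difference was -0.48 across the 55 members and -0.57, -0.51 and -0.23 within replicates 1, 2 and 3. It was -0.15 across all tested genes and 0.01 across 102 other actin genes. These are descriptions across genes that share the same 6 libraries, and genes are not independent replicates. The lengths were derived from the TPM and are too short for any gene whose 6 read numbers share an unseen factor. Long members are largely the crosslinkers, Dock proteins and kinases (Flna, Tln1, Dock8, Rock2 and Limk2), and short ones the thymosins, cofilin and Arp2/3 subunits, so length and role cannot be told apart here. Rock1, Cdc42 and Diaph1 were long and had log2 differences above 0.

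**Figure D4:**
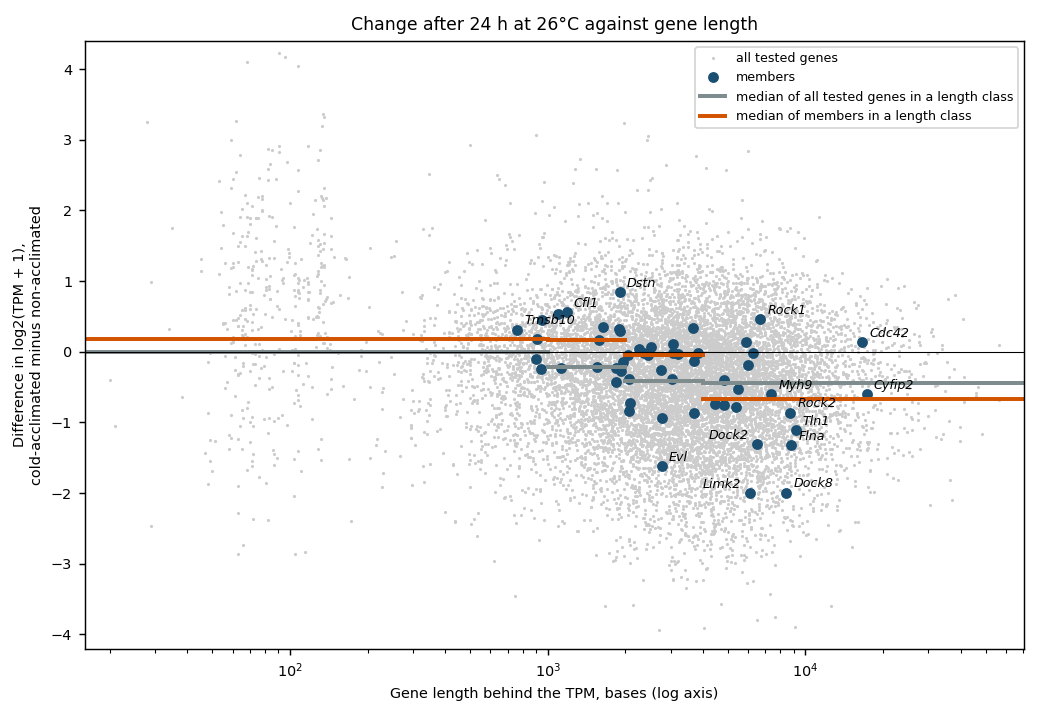
Difference in log2(TPM + 1) against the gene length behind the TPM (log axis) for all 12227 tested genes (grey points) and the 55 members (blue points), with medians in 4 length classes for all genes (grey lines) and members (orange lines). The members' median falls from 0.18 in the shortest class to -0.67 in the longest, and that of all genes from 0.00 to -0.44.

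The wider pathway was covered by 128 other actin genes, of which 102 passed the filter on low values. Of these, 3 rose and 19 fell in limma, against 3.3% and 17.4% of all tested genes, and their median log2 difference was -0.37, which is 0.03 below that of all genes. With the replicate block 6 rose and 33 fell (6.89% and 29% of tested genes), with median of ratios scaling 7 rose and 3 fell (8.64% and 9.32%), and with both 12 rose and 16 fell (16.9% each). Of the genes that fell in limma without the block, 7 were among the 37 tested small GTPases and regulators. Another 6 were among the 29 tested turnover, capping and crosslinking genes. The rest were among the 15 tested nucleation and elongation genes and the 21 tested myosin, adhesion and membrane genes. Vav1, an exchange factor for Rac downstream of the T cell receptor, was at 121, 121 and 146 TPM at 37°C and at 27.0, 26.2 and 63.1 TPM at 26°C (log2 difference -1.83 ± 0.36 SE, adjusted p = 0.0159 in limma). Dbnl, for an actin-binding adaptor of the same receptor pathway, was at 151, 213 and 167 TPM at 37°C and at 66.8, 55.1 and 85.2 TPM at 26°C (-1.35 ± 0.25 SE, adjusted p = 0.0145 in limma).

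The genes that rose included Twf1, for twinfilin, which binds monomers and caps filaments, and Fmnl3, for a formin. Twf1 was at 28.7, 32.5 and 41.6 TPM at 37°C and at 72.8, 73.0 and 123 TPM at 26°C (1.33 ± 0.29 SE, adjusted p = 0.0207 in limma). Fmnl3 was at 8.72, 4.27 and 8.20 TPM at 37°C and at 17, 17.5 and 26.3 TPM at 26°C (1.42 ± 0.33 SE, adjusted p = 0.0252 in limma). None of the 4 overlapped between conditions, and each passed with median of ratios scaling too. When single libraries were left out, the highest adjusted p in limma was 0.0657 for Vav1, 0.0689 for Dbnl, 0.0829 for Twf1 and 0.0889 for Fmnl3.

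Several actin genes are textbook targets of serum response factor, which binds the CArG box and whose partners, the MRTFs, sense free actin monomers. Of the 5 genes of this axis that were tested 1 fell, Mrtfb, against 17.4% of all tested genes (log2 difference -1.03 ± 0.27 SE, adjusted p = 0.0354 in limma) from 3.81, 4.19 and 4.30 TPM to 1.20, 1.42 and 1.90 TPM. Its call was lost with median of ratios scaling (0.0849 in limma). Srf was at 62.2, 74.8 and 54.8 TPM at 37°C and at 151, 140 and 72.2 TPM at 26°C, and had an adjusted p of 0.0974 in limma, of 0.0303 with the block and of 0.0475 with median of ratios scaling. Mrtfa, for the other MRTF, was at 23.6, 29.2 and 35.7 TPM at 37°C and at 9.81, 10.6 and 20.7 TPM at 26°C, with no overlap and an adjusted p of 0.0531 in limma and 0.0140 with the block. Elk1 and Elk4, for cofactors of another kind, had adjusted p of 0.0685 and 0.27 in limma, and of 0.0352 and 0.205 with the block. These genes were named after their values were seen.

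A CArG box was searched on both strands of RefSeq promoter windows, which run from 250 bases before to 50 bases after a gene's start. It was found in 4 of the 47 members with a window (8.51%), in 1.45% of 9121 tested genes and in 1.81% of all 27025 genes with a window. The 8 members without a window were Actb, Arpc5l, Coro1b, Diaph1, Nckap1l, Rac1, Rac2 and Rock1. The sequences below are shown because these 4 members, which belong to different roles, share the box. They are RefSeq windows of build GRCm38.p6 that matched GRCm39 exactly, in the direction of the gene, with the box in capitals.
Actg1: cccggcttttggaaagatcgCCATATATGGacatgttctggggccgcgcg
Arpc4: CCTAATTTGGtgcccaacctgaggtcgggc
Myl6: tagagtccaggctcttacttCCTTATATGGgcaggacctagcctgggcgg
Vcl: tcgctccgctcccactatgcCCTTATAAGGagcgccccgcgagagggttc

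The stretch of Actg1 lies at chr11:120239382-120239431 of GRCm39 on the minus strand, with the box starting 90 bases before the start of the RefSeq window's transcript, which is also the end of the deposited gene. That of Arpc4 lies at chr6:113354824-113354853 on the plus strand, where the box begins at the outer edge of the window. The stretch of Myl6 lies at chr10:128328899-128328948 on the minus strand, with its box from 50 bases before the RefSeq start, which lies inside the deposited gene, so that the box is 827 bases within it. The stretch of Vcl is at chr14:20979219-20979268 on the plus strand, with its box from 227 bases before the RefSeq start and 197 bases before the deposited gene. These 4 genes did not share a direction. Their log2 differences were -0.14 for Actg1, 0.04 for Arpc4, 0.18 for Myl6 and -0.52 for Vcl, and none passed the test in limma. A match is a description of these letters and says nothing of whether the factor was bound.

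Strand can touch some of these values, because the setting used to count reads is not given in the sources used here. A gene with a mean of at least 1 TPM overlaps 15 of the members, and for 13 of them such a gene lies on the opposite strand. The largest of these relative to the member were Gm13707 at Wipf1 (56.1 TPM), Gm39681 at Dock2 (51.2 TPM) and Ppt1 at Cap1 (89.9 TPM). Flna and Rock2 had no such neighbour.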

How the data were processed

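RNA-seq of 6 libraries was analysed, 3 from non-acclimated and 3 from cold-acclimated D10 cells. Per the submitters' processing notes and methods, reads were checked with FastQC 0.11.7, trimmed with Trimmomatic 0.38, aligned to GRCm39 with HISAT2 2.1.0 and counted per gene with featureCounts 1.6.3, with DESeq2 for the tests of the study. The authors deposited TPM, which was used as it stands together with the gene positions of that table. For the strand setting and annotation release, nothing is given in the sources used here. A TPM divides by gene length and fixes each library's total, so a large change in some genes shifts all others. Whole numbers in the ratio of the TPM were found, from the smallest unit that divides the values of a gene, for 100% of 21195 genes above 0 (tolerance 1e-06 reads). These were taken as reads, and a gene length was derived from the same unit. A factor shared by all 6 numbers of a gene was restored only where the derived length was not whole (901 genes). Where such a factor went unseen, both the reads and the length of the gene are too small by it.

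The main test was limma 3.58.1 (R 4.3.3) with a mean-variance trend on log2(TPM + 1), over the 12227 genes with a mean of at least 1 TPM, with Benjamini-Hochberg adjustment over all of them. A gene passed at an adjusted p under 0.05, and a log2 difference of at least 1 was the size threshold. The main fit had no replicate term. Deviations of same-numbered libraries correlated at 0.48, 0.50 and 0.51, and those of other pairs at -0.41 to 0.02, so the fit with a replicate block is given where it changes a result. Ratios were compared by exact permutation tests. Other values came from Python 3.11.15 (scipy 1.17.1, pandas 2.3.3, numpy 2.4.6), and figures from matplotlib 3.10.9. Alternatives were a pseudocount of 0.1, no filter, median of ratios scaling, quantile normalization, a replicate block, voom on recovered reads and leaving out each library. Fits without replicate 3 were added after seeing the data. The main, block, median of ratios and voom fits were also run on simulated libraries. Those were drawn without differences between replicate numbers, so the simulation does not test the fits under the pairing seen here.

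The members, lists and roles were chosen with earlier results of these data known, so no set test was made. Values per library are given for each member with an adjusted p under 0.05, for the most abundant member of each role and the one farthest from the all-gene median, and for pairs whose ratios do not overlap. Of the other actin genes, the 2 with the smallest p in each direction are named. Dstn, Tln1, Dock2 and the ratio of Myl12a to Myl12b were chosen for values per library after these were seen. Samples from separate cultures are described as replicates by the study, and the p-values measure the spread between them.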

Additional observations from a re-analysis of the deposited data

How the results depend on the processing

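In the main limma fit 0 members were higher and 3 lower past the adjusted p threshold of 0.05, and 0 and 2 with the size threshold. Members higher at an adjusted p under 0.05 numbered 2 with median of ratios scaling (8.64% of tested genes), 1 with the replicate block (6.89%) and 8 with the block and the scaling together (16.9%). They numbered 2 with voom (7.72%), 1 without replicate 3 (6.96%) and 2 with the block and without replicate 3 (13.4%). Members lower numbered 1 with the scaling (9.32% of tested genes), 1 with quantile normalization (6.8%), 14 with the block (29%) and 6 with the block and scaling (16.9%). They numbered 1 with voom (9.64%), 10 without replicate 3 (28.9%) and 17 with the block and without replicate 3 (40.9%), a fit with few residual degrees of freedom. With the size threshold, 1 was higher with the block and scaling (9.24% of tested genes). Those lower numbered 1 without a filter (5.29%), with scaling (8.6%), with quantile normalization (6.26%) and with voom (9.18%). They numbered 6 with the block (21.9%), 8 without replicate 3 (25.5%) and 10 with the block and without replicate 3 (28.4%). Leaving out single libraries gave 1 to 11 lower members, and 1 to 9 with the size threshold. The high values came without cold-acclimated replicate 3, where 24.5% and 22.3% of tested genes were lower. The others gave 1, against 2.73% to 15.2% of tested genes (2.73% to 15% with the size threshold). With each single library left out, 0 members were higher, against 0.486% to 4.73% of tested genes. In those fits with 2 libraries in a condition, the spread is pooled over both conditions. The members' median relative to all genes, 0.15, was -0.12 without a filter, -0.20 with quantile normalization and 0.0495 to 0.27 when single libraries were left out. Dropping the filter leaves each member's log2 difference as it was and moves only the all-gene median. The cause of the other shifts was not tested.

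Over all alternatives, 747 of the values of single members kept their side of the threshold and direction, 60 passed where the main fit did not, 18 no longer passed and 0 of those that passed were reversed. The alternatives are refits of the same 6 libraries, so these values are not separate results. Between them, the share of all tested genes that passed in either direction ran from 3.22% to 54.2%, against 20.7% in the main fit. The replicate block changed the call of no member other than those named. Depth limited Evl, for which a library held a single read.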
